A study of Mus musculus with 2 samples.

Results

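Aminoacyl-tRNA synthetase genes were followed in mouse hybridoma cells with and without the bursal peptide BSP-II. The 36 genes were taken from a list of synthetases and matched to array probes by RefSeq accession. They comprised 20 genes for cytosolic enzymes and 16 for mitochondrial enzymes, of 17302 genes with a probe, and 60 probes in all. Every one of the 36 had a probe well above background on both arrays, as had 12864 of the 17302, so no member was lost to the filter on dim signals. Mars carries the newer symbol Mars1 in the gene table.

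Each synthetase joins 1 amino acid to its matching tRNA, and the charged tRNA delivers that amino acid to the ribosome. Cytosolic and mitochondrial translation mostly use separate synthetases, which are all encoded in the nucleus; Gars and Kars each supply both compartments from a single gene, and mitochondria make glutaminyl-tRNA through an amidotransferase in place of a synthetase. Many cytosolic synthetase genes are known targets of ATF4, the transcription factor that is induced when amino acids run short or proteins misfold. Antibody-secreting cells make much protein and so depend on charged tRNA.

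The cells were the hybridoma line 1H5F9, a B cell joined to a myeloma cell so that it grows and secretes antibody, kept in medium with 20% serum. BSP-II is a peptide from the bursa of Fabricius, the organ in which birds form B cells. The untreated group was cultured for 4 h with 0 µg/ml of the peptide and the BSP-II group for 4 h with 5 µg/ml. Each group is 1 single-colour array, labelled as replicate 1. No test of the treatment was therefore possible, and the differences below stand without replicates. A hybridoma line is a clone, and other lines were not analysed here.

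Of 41163 probes, 24683 passed the scanner software's call of well above background without the peptide and 27284 with it. Of the 12 markers of plasma cells and the B lineage, 11 were well above background on both arrays, among them Jchain, Mzb1, Xbp1 and Sdc1; Pax5, a factor of B cells that plasma cells switch off, was not on either. Markers of other cells were also detected on both arrays, 4 of 5 for T cells, 2 of 4 for myeloid cells, 3 of 3 for fibroblasts and 3 of 3 for epithelium. Such a call was common, since 12864 of the 17302 genes with a probe passed it on both arrays. Untreated levels, on the log2 scale given below, ran from −4.50 (Cd3d) to −0.57 (Cd3e) for the detected T cell, myeloid and fibroblast markers. Epithelial ones ran from −3.12 (Krt8) to 3.74 (Epcam), and those of plasma cells and the B lineage from −3.71 (Cd79a) to 8.93 (Jchain). The plasma cell and B lineage markers had a median log2 difference of −0.17, from −0.41 to 0.09. Those of the other cells went both ways, from −0.69 to 0.90. The highest, Csf1r, had −0.75 at its other probe. The part of all these markers in the synthetase values was not tested. In bulk RNA fewer cells of a type and less RNA per cell cannot be told apart.

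Levels are given as the log2 processed signal relative to the 75th percentile of the same array, and differences as BSP-II minus untreated. Over the 12864 genes measured on both arrays, differences had a median of −0.03, an SD of 0.31 and quartiles at −0.19 and 0.11. The scanner software's own error of a single spot, carried to a log2 difference, was between 0.20 and 0.21 for every member. Each member's chosen probe had 1 spot. Repeat spots of other probes differed less, with a median SD of 0.07. Both errors are technical and leave out the spread between cultures.

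The sequences that bear on a shared response are those of the promoters. Of the 36 genes, 27 are matched in the RefSeq promoter table (GRCm38.p6), which holds 250 bases before and 50 after the start of each gene; Cars, Hars, Lars, Nars, Rars, Vars, Wars, Hars2 and Pars2 are not among them. They were searched on both strands for TGATGNAA, the core of the composite element through which ATF4 and C/EBP proteins act. It was found in 5 synthetase promoters, all of cytosolic enzymes. One match of each gene is shown as a 30-base window, 5′ to 3′ on the strand of the gene, with the match in capitals.
Aars, chr8:111033840-111033869 (+): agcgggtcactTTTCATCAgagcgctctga
Gars, chr6:55037960-55037989 (+): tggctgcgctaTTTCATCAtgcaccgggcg
Iars, chr13:49682126-49682155 (+): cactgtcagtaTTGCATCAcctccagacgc
Tars, chr15:11399655-11399684 (-): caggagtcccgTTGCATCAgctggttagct
Yars, chr4:129189895-129189924 (+): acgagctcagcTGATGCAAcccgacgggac

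Counting from 0 at the start that the promoter table uses, which in Aars and Yars is not the end of the gene's full span, the first base of the match shown lay at 9 in Aars, at −30 in Gars, at −15 in Tars, at 7 in Iars and at 3 in Yars. In Yars the letters were on the strand of the gene, and in the other genes on the opposite strand. Of all genes with a promoter listed, 4.51% held the motif, and of those measured on both arrays 3.05%. It was in 5 of the 13 cytosolic promoters (38.5%) and in 0 of the 14 mitochondrial ones. A match describes letters and not a site bound in these cells.

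The upstream stretches of 250 bases are shown for 2 of the 6 cytosolic genes with the largest differences (Gars 0.23, Mars 0.28), to set a promoter with a match (Gars) beside one without (Mars), again with the match in capitals.
Gars, chr6:55037751-55038000 (+): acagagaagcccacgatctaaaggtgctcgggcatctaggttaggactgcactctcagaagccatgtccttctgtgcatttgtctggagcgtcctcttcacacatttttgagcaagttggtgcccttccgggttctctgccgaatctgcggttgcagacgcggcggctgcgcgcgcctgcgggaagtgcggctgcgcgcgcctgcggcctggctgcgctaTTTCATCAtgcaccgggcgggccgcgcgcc
Mars, chr10:127311787-127312036 (-): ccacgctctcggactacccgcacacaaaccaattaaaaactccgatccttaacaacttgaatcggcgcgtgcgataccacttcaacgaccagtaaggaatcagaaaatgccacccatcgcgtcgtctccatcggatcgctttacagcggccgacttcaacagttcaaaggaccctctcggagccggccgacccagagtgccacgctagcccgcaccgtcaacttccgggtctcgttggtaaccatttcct

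Most cytosolic synthetases lay slightly above the median of all genes, and most stayed within the spread of all genes. Their median log2 difference was 0.06, which is 0.08 above the median of all genes but 0.05 above that of the 7207 genes with signals in the range of these members. Of the 20, 16 lay above the median of all genes, beside 50% of all genes by construction and 58.6% of those in the same range, and 14 lay between the quartiles of all genes. At the threshold set for the main count, a level at least 25% higher, 0 of the 20 were called on either array. Of all genes, 5.64% were so on the BSP-II array and 14.4% on the untreated one. Among genes in the same range of signals the shares were only 3.47% and 4.81%. The count of members called is set by the scaling. With each array scaled to its median, every difference is 0.12 larger, 5 of the 20 (Aars, Cars, Gars, Mars and Nars) were at least 25% higher with BSP-II, and so were 13.4% of all genes and 11.5% of those in the same range, while 9.01% of all genes were so untreated. In the authors' value table it was also 5 of 20, beside 13.9% of all genes. The lower threshold of 1.1-fold was an alternative, and it is used below because the main one called no cytosolic gene. By it 6 of the 20 were higher (30%), against 20.4% of all genes, and 0 were lower, against 30.3%. Among genes in the same range of signals, 19.6% were 1.1-fold higher and 17.9% 1.1-fold lower.

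**Figure D1:**
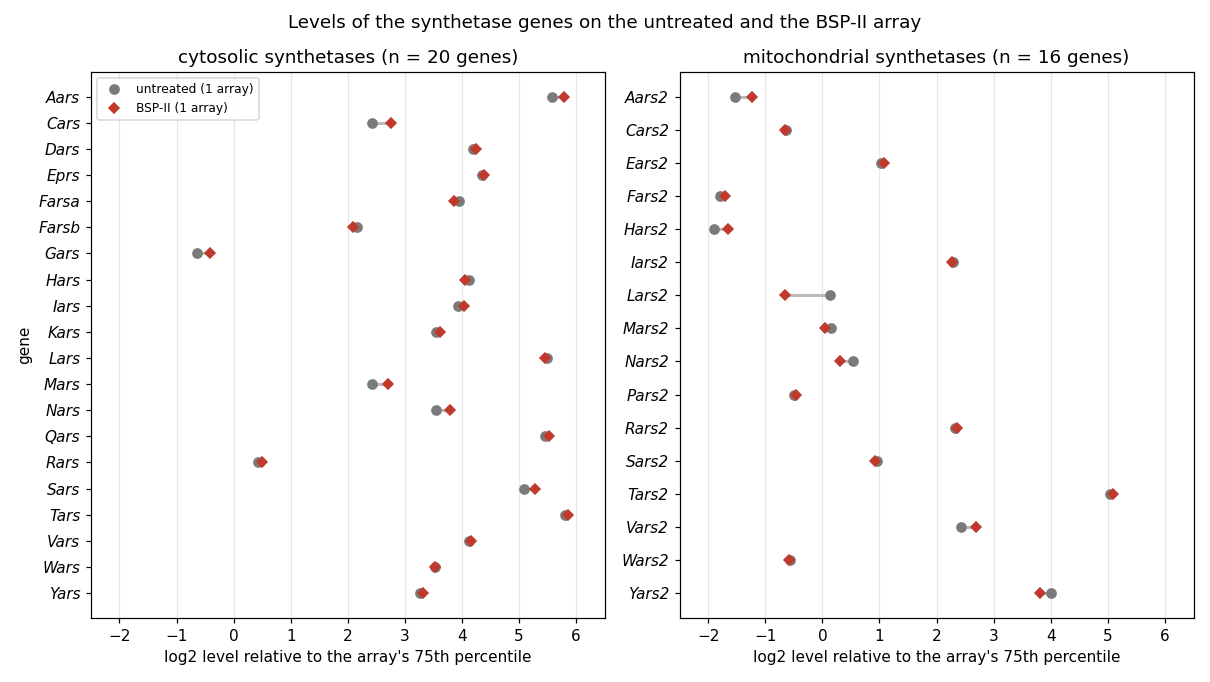
Log2 level of each synthetase gene on the untreated array (grey circles) and the BSP-II array (red diamonds), relative to the 75th percentile of the array, with 1 array per group and no error bars. Most pairs of points nearly coincide; Cars and Mars stand to the right on the BSP-II array and Lars2 to the left, at 0.13 and −0.65.

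The highest cytosolic member was Cars, the cysteinyl enzyme, with a level of 2.43 untreated and 2.75 with BSP-II. The difference was 0.32, just short of 25%, and the gene's other probes gave 0.31 and 0.35. Mars, the methionyl enzyme, which charges the initiator tRNA as well as the elongator, was at 2.42 and 2.70, a difference of 0.28, with 0.29 at its other probe. In these 2 genes all 5 probes were higher on the BSP-II array, by 0.28 to 0.35.

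Nars, the asparaginyl enzyme, was at 3.55 untreated and 3.78 with BSP-II, a difference of 0.23. Gars, the glycyl enzyme of both compartments, had the dimmest signals of the cytosolic set, with levels of −0.65 and −0.42 and a difference of 0.23. Aars, the alanyl enzyme, was at 5.57 and 5.79, a difference of 0.22, with 0.24 at its other probe. Sars, the seryl enzyme, which also charges the tRNA on which selenocysteine is made, was at 5.08 and 5.27, a difference of 0.19. These 6 genes lay above the upper quartile of all genes (0.11). They exceeded the all-gene median by more than the spot error, as 14.8% of all genes did, and none by more than 2 such errors.

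Next in order came Iars, the isoleucyl enzyme, at 3.93 and 4.03, a difference of 0.09, with 0.17 at its other probe. Kars, the lysyl enzyme of both compartments, was at 3.54 and 3.62, a difference of 0.08. Rars, the arginyl enzyme, was at 0.43 and 0.50 (difference 0.07), and Qars, the glutaminyl enzyme, at 5.46 and 5.52 (difference 0.06, other probe 0.15). The spots of Kars and Qars were clustered, meaning that at least 2 other spots within 3 rows and columns were 2-fold different in a shared direction. Throughout the cytosolic set, neighbours in this order differed by less than the spot error.

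Tars, the threonyl enzyme, was at 5.80 and 5.86, a difference of 0.05, but its other probe gave 0.23. Yars, the tyrosyl enzyme, was at 3.26 and 3.31 (difference 0.05), and Dars, the aspartyl enzyme, at 4.20 and 4.25 (difference 0.05, other probes −0.08 and 0.16). Vars, the valyl enzyme, was at 4.12 and 4.16, a difference of 0.04, with 0.13 at its other probe. Eprs, in which the glutamyl and prolyl enzymes are fused in 1 protein, was at 4.36 and 4.39, a difference of 0.03. Its probes went both ways, since the others gave 0.10, −0.17 and −0.42. Wars, the tryptophanyl enzyme, which interferon gamma is known to induce, was at 3.52 and 3.53, a difference of 0.01, with 0.07 at its other probe.

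The 4 cytosolic genes below the median of all genes were lower by small amounts. Lars, the leucyl enzyme, which in human cells also takes part in leucine sensing by mTORC1, was at 5.50 and 5.45, a difference of −0.05, with 0.19 and −0.25 at its other probes. Hars, the histidyl enzyme, was at 4.12 and 4.06 (difference −0.06). Farsa and Farsb, the subunits of the phenylalanyl enzyme, were alike: Farsa was at 3.95 and 3.87, and Farsb at 2.17 and 2.08, each a difference of −0.08. The other probes of Farsa gave −0.11 and −0.14.

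**Figure D2:**
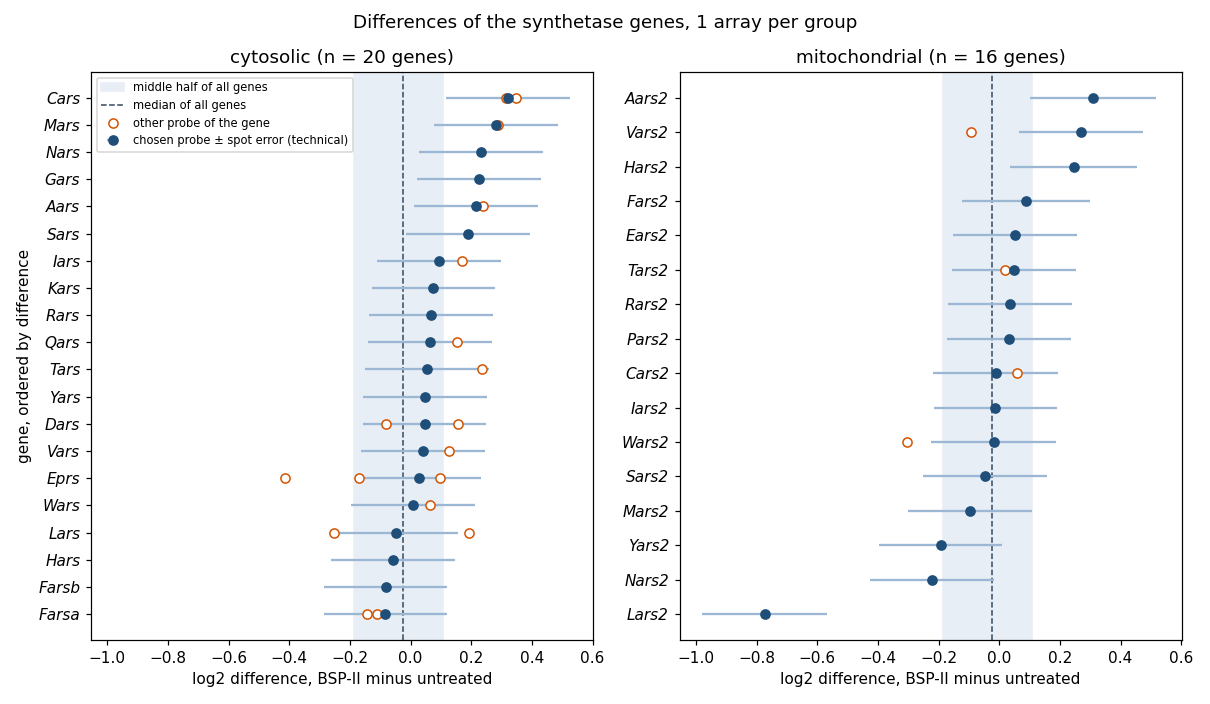
Log2 difference (BSP-II minus untreated) of each synthetase gene, ordered by size; filled points are the chosen probe with the scanner software's spot error as a bar, open points are other probes well above background, the band spans the quartiles of all genes and the dashed line is their median. From Cars at 0.32 to Sars at 0.19 the 6 highest cytosolic genes lie right of the band, and Lars2 lies far left at −0.77.

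Other probes of a gene are a partial check, since they measure the same RNA at other spots. For 12 cytosolic genes there were 18 such probes, with a median difference of 0.14, and 12 of the 18 (66.7%) lay above the all-gene median. Over all genes 49.9% of 5019 other probes did, with a median of −0.03. Those 5019 were not restricted to the cytosolic range of signals, in which 58.6% of genes lay above that median by their chosen probe. For 4 mitochondrial genes there were 4 other probes, 2 of them above the all-gene median.

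The 16 mitochondrial synthetases had a median difference of 0.01, as had the genes in their range of signals (0.01), and 11 lay above the all-gene median (68.8%), beside 58.1% of the 8409 genes in their range of signals. At least 1.1-fold higher were 3 of them and at least 1.1-fold lower another 3, each 18.8% of the set. Shares of the genes in the same range of signals were 21.7% and 20.5%, near those of the members. Their differences were spread more widely than the cytosolic ones, with an SD over genes of 0.25 against 0.12, and of 0.15 without Lars2. Signals were also dimmer in part, from 83.2 for Hars2 to 12160 for Tars2 before scaling, where the cytosolic ones ran from 197 to 20657.

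Lars2, the mitochondrial leucyl enzyme, differed most of all 36 genes. Its level was 0.13 untreated and −0.65 with BSP-II, a difference of −0.77, or 1.71-fold lower with BSP-II. With the scaling used here it was the only member at least 25% higher on either array, and it was the only one beyond 2 spot errors of the all-gene median, as 10.4% of all genes were. At least 1.5-fold lower were 4.84% of all genes, and 1.62% of those in the range of signals of the mitochondrial set. It rests on 1 probe with 1 spot, and that spot was clustered. With local medians subtracted it was at −0.74 relative to all genes; with clustered spots left out it has no value.

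The 3 higher mitochondrial genes were Aars2, Vars2 and Hars2. Aars2, the alanyl enzyme, was at −1.54 and −1.23, a difference of 0.31. Relative to all genes it stood at 0.33, and at 0.22 without background subtraction. Vars2, the valyl enzyme, was at 2.42 and 2.69, a difference of 0.27, but its other probe gave −0.09. Hars2, the histidyl enzyme, had the lowest signal, with levels of −1.89 and −1.65 and a difference of 0.25. Without background subtraction it was at 0.08 relative to all genes, where it stood at 0.27 with subtraction.

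Of the other mitochondrial genes, 10 lay between −0.10 and 0.09. Fars2, which is a single chain unlike its cytosolic counterpart, was at −1.80 and −1.71, a difference of 0.09. Ears2, the glutamyl enzyme, which in mammalian mitochondria also loads glutamate on the glutamine tRNA, was at 1.02 and 1.07 (difference 0.05), and Tars2 at 5.04 and 5.09 (difference 0.05, other probe 0.02). Rars2, Pars2, Cars2, Iars2 and Wars2, which serve arginine, proline, cysteine, isoleucine and tryptophan, lay between 0.04 and −0.02. The other probe of Wars2 gave −0.30, and that of Cars2 0.06.

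On the low side, Sars2 was at 0.96 and 0.91 (difference −0.05) and Mars2 at 0.15 and 0.05 (difference −0.10). Yars2, the tyrosyl enzyme, was at 4.00 and 3.81, a difference of −0.19, and relative to all genes it moved from −0.17 to −0.08 without background subtraction. Nars2, the asparaginyl enzyme, was at 0.53 and 0.31, a difference of −0.22, and moved in the same way from −0.20 to −0.09. These 2 genes and Lars2 are the 3 that were at least 1.1-fold lower. The other probe of Nars2 was well above background on the BSP-II array only.

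The medians of the cytosolic and mitochondrial sets differed by 0.05, a difference for which 1 array per group gives no error. Paired by amino acid, the cytosolic enzyme had the higher difference in 10 of 15 pairs and the mitochondrial one in 5, with a median of 0.03. For phenylalanine the mean of Farsa and Farsb was used. The cytosolic enzyme was ahead by more than the combined spot error, between 0.26 and 0.29, in 4 pairs: leucine (0.73), asparagine (0.46), methionine (0.38) and cysteine (0.33). What share of other pairs of genes differ by more than that error is not given, so the count has no reference beside it. The mitochondrial enzyme was ahead by more than that error in 1 pair, histidine (−0.30). That pair rests on Hars2, the dimmest member. Without background subtraction Hars2 was at 0.08 and Hars at 0.02 relative to all genes, where they stood at 0.27 and −0.03. The leucine pair rests on the single clustered spot of Lars2. Alanine was the amino acid for which both enzymes were at least 1.1-fold higher, Aars at 0.22 and Aars2 at 0.31.

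**Figure D3:**
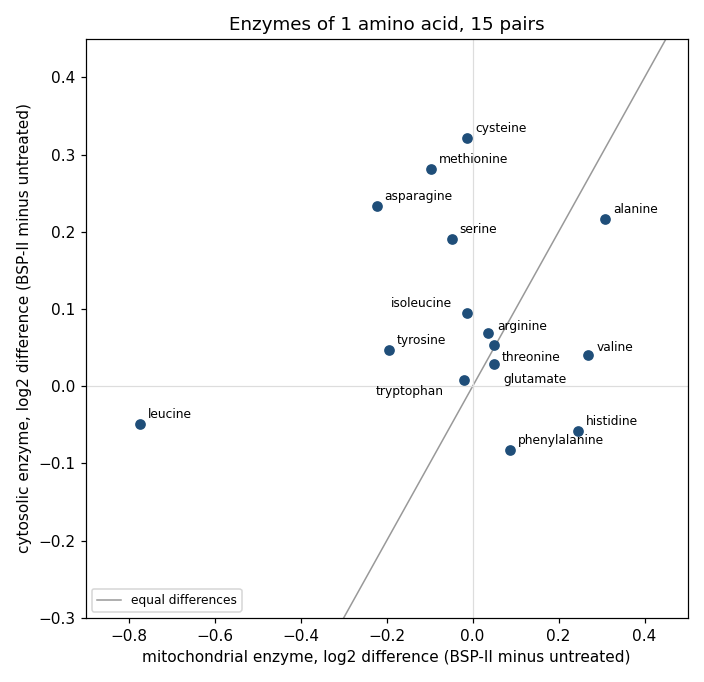
Log2 difference of the cytosolic enzyme (vertical axis) against that of the mitochondrial enzyme (horizontal axis) for 15 amino acids, with the line of equal differences. Cysteine, methionine and asparagine lie above the line with cytosolic values of 0.32, 0.28 and 0.23, and leucine lies far left through Lars2.

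Within the cytosolic set, the 6 genes that were at least 1.1-fold higher were all among the 13 known as ATF4 targets, or 46.2% of them beside 20.4% of all genes and 19.6% of those in the range of signals of the cytosolic set. Those 13 had a median difference of 0.09, with 12 (92.3%) above the all-gene median, beside 50% of all genes and 58.6% in the same range; Lars was the exception. The other 7, Dars, Farsa, Farsb, Hars, Kars, Qars and Rars, had a median of 0.05, ran from −0.08 to 0.08, and 4 lay above the all-gene median. The list of targets comes from background knowledge of other cells, but it was set with earlier results of these data known. The 1.1-fold threshold was given more room after the main one had called no cytosolic gene. Neither is therefore independent of these values, and the difference between the lists was not tested. The other 7 targets, Iars, Tars, Yars, Vars, Eprs, Wars and Lars, lay between −0.05 and 0.09 and overlapped the non-targets.

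Genes with and without the composite element overlapped in their differences. The 5 genes with a match were all ATF4 targets, of 8 targets in the promoter table, and none of the other 5 cytosolic genes in the table had one. Aars and Gars with a match were at 0.22 and 0.23, whereas Iars, Tars and Yars, also with a match, were at 0.09, 0.05 and 0.05. Mars and Sars had no match in this window and were at 0.28 and 0.19. An ETS element read as CCGGAAG, on both strands, was in 9 of the 27 synthetase promoters (33.3%), beside 18.1% of the genes measured on both arrays. It was in 5 of 13 cytosolic and 4 of 14 mitochondrial ones.

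Medians by structural class and by complex were close together. Synthetases fall into class I and class II by the fold of the catalytic domain. Cytosolic class I genes had a median of 0.06 and class II genes of 0.06, and mitochondrial class I genes had −0.01 against 0.05 for class II. In mammalian cells 8 cytosolic synthetases sit in the multisynthetase complex, and their genes had a median of 0.07, with Mars highest at 0.28. The 12 outside it had a median of 0.05 but held 5 of the 6 highest genes.

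The scaffold of that complex went both ways. Aimp1, which binds the arginyl and glutaminyl enzymes, was at 4.77 and 4.90, a difference of 0.13. Aimp2 was at 3.20 and 3.01 (difference −0.19), and Eef1e1, the partner of Mars in the complex, at 4.62 and 4.42 (difference −0.20). Aimp2 and Eef1e1 were lower where most synthetases of the complex were slightly higher.

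Relatives of the synthetases, measured for 10 genes, had a median of −0.02. Pstk, which phosphorylates seryl-tRNA on the way to selenocysteine, was at 0.26, and Sepsecs, which completes that step, at 0.01. Mtfmt, which formylates the mitochondrial initiator tRNA, was at 0.23. The subunits of the mitochondrial amidotransferase, Qrsl1, Gatb and Gatc, were at −0.11, −0.14 and −0.02, with 0.25 at the other probe of Gatc. Tarsl2, a second cytosolic threonyl enzyme, was at −0.09 and its other probe at −0.04. The editing proteins Aarsd1, Dtd1 and Prorsd1 were at 0.11, −0.02 and −0.13.

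Mitochondrial translation factors also went both ways, with a median of 0.08 and 5 of 9 above the all-gene median. The initiation factors Mtif2 and Mtif3 were at 0.29 (other probe 0.16) and 0.20. Of the elongation factors, Tufm was at −0.09, Tsfm at 0.14 and Gfm1 at −0.21, and Gfm2, which recycles ribosomes, was at 0.27. Of the factors that end translation, Mtrf1 was at 0.08, Mtrf1l at −0.05 and Mrrf at −0.12 at a clustered spot.

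Other genes of the amino acid response, the pathway that induces synthetases, ranged more widely than cytosolic synthetases and were more often higher than lower. Of 30 measured genes 24 (80%) lay above the all-gene median, beside 50% of all genes and 58.6% of those in the cytosolic range of signals. The 30 genes had a median difference of 0.15 and a range from −0.43 to 0.82. At least 25% higher on the BSP-II array were 8 (26.7%), beside 5.64% of all genes and none of the synthetases; with each array scaled to its median the counts were 9 of 30, 13.4% of all genes, 5 cytosolic and 3 mitochondrial synthetases. Among genes of at least median level, 7 of 23 in the response were at least 25% higher, beside 2.55% of all such genes. At least 25% lower was 1 of the 30 (3.3%), beside 14.4% of all genes but only 4.81% of those in the cytosolic range of signals. At least 1.1-fold higher were 16 (53.3%), beside 20.4% of all genes and 19.6% in the cytosolic range of signals. At least 1.1-fold lower were 3 (10%), beside 30.3% and 17.9%. The 3 were Sesn2 (−0.43), Mthfd2 (−0.20) and Slc7a1 (−0.15, other probe −0.42). Some genes of the response lay outside that range. The most different were Fgf21 (0.82, at low signal), Trib3 (0.73, other probe 0.15), Chac1 (0.54) and Ddit4 (0.54). Atf4 itself was at 2.94 and 2.96, a difference of 0.02, and Asns, the asparagine-making target that like Nars serves asparagine, was at 7.34 and 7.42, a difference of 0.08.

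**Figure D4:**
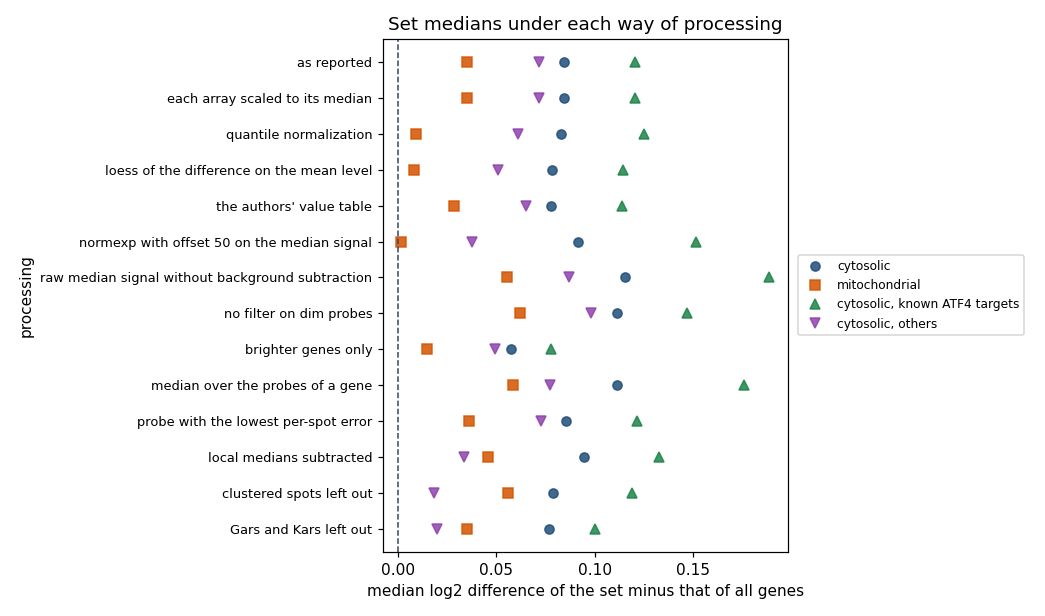
Median log2 difference of 4 sets of synthetases minus that of all genes (horizontal axis) under each way of processing (vertical axis), with the value as reported on top; the dashed line is the median of all genes. The cytosolic median (circles) stays between 0.06 and 0.12 and the mitochondrial one (squares) between 0.002 and 0.06.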

How the data were processed

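Cy3-labelled RNA of 2 cultures was hybridised to Agilent single-colour arrays, scanned and extracted, per the submitters' processing notes, by Agilent Feature Extraction 10.5.1.1. Per the file headers, the deposited intensity values are a background-subtracted processed signal with its error and the median brightness of spot and background; the deposited flags (unit other) mark saturated, outlier and well-above-background spots. The authors' deposited table holds log2 values, equal to the log2 processed signal plus a constant per array (−4.85 and −4.94; within 0.0001 for 99.8% of probes), of an origin that is not stated.

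Each array's log2 processed signal was reduced by its 75th percentile (signals of 309 and 356). Control spots and 189 outlier spots were left out; no spot was saturated. Spots of a probe were averaged, and among a gene's probes well above background on both arrays, that of highest mean level stood for the gene. Accessions were matched without versions to RefSeq GRCm38.p6 names, for 25091 of 41163 probes. Genes with signals in the range of a set are those whose mean level lies between the lowest and highest member. The error of a difference combines both spots' errors. Members and lists, the targets of ATF4 included, were chosen with earlier results of these data known. The text names all members, the measured genes of the 3 short related lists, the 4 most different genes of the amino acid response, and Atf4, Asns, Sesn2, Mthfd2 and Slc7a1, which were chosen after their values were seen. The ETS motif was added then too, and an NRF1 motif was also searched and is not reported here. Which synthetases count as ATF4 targets was set from general knowledge, with no source among the files. The main threshold was 25%; the 1.1-fold counts are an alternative, given more room after the main threshold had called no cytosolic gene. Alternatives covered scaling, background, the filter on dim probes, the choice of probe, array position and thresholds. With no replicates no p-value is given, and the number of arrays limits the precision. One gene of the related lists and part of the promoter sequence are not reported here. The steps were tested on data simulated from the untreated array with inserted folds and random noise, which checks the computation only. Python 3.11.15, numpy 2.4.6, pandas 2.3.3, statsmodels 0.14.6, matplotlib 3.10.9 and limma 3.58.1 (normexp) were used.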

Additional observations from a re-analysis of the deposited data

How the results depend on the processing

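Scaling each array to its median and the authors' value table add a constant per array, so that by construction they hardly move a value taken relative to all genes. Under the 11 other alternatives the medians of the sets relative to all genes stayed positive, the mitochondrial one barely so in some. The alternatives were not taken relative to genes in the same range of signals. As reported, the cytosolic median lay 0.05 above that of such genes and the mitochondrial one at −0.0002 from it. The cytosolic median ranged from 0.06 to 0.12, the mitochondrial one from 0.002 to 0.06, the known ATF4 targets from 0.08 to 0.19, the other cytosolic genes from 0.02 to 0.10, and the cytosolic median minus the mitochondrial one from 0.02 to 0.09. Single member values were taken under those 11 except the one that left out Gars and Kars. Of these 349 values, 334 stayed within the SD of repeat spots (0.07) and 15 moved further. Hars2 ranged from 0.08 to 0.31, Vars2 from 0.12 to 0.33 and Lars2 from −0.78 to −0.63. The count of cytosolic genes at least 25% higher depends on the scaling, since with median scaling every difference is 0.12 larger. It was 0 as reported, 5 with median scaling and in the authors' value table, 1 with quantile normalization, with loess, with the raw signal and with local medians subtracted, and 6 at a threshold of 1.1-fold. Among brighter genes only, 4 of 8 mitochondrial genes lay above the median and the cytosolic member was higher in 6 of 8 pairs; the genes and the all-gene median both differ there. The planned normexp on the mean signal was run on the median signal, as the files hold no mean, and the planned comparison of protein sequences was not run. No paired analysis was possible because each group is 1 array. Signal over background limits the dimmest members: the lowest signals well above background were 11.8 and 7.66, against 83.2 for the dimmest member.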
